A study of Mus musculus with 8 samples.

Results

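The extracellular matrix genes of the liver were examined in 4 NS-DADm and 4 WT samples, as 91 of the 19935 genes that have a probe set of their own on the array. They were chosen by symbol in the array's annotation: every Col, Mmp, Timp or Adamts followed by a digit, plus Lum, Dcn and Ecm1. That rule found 44 collagen chains, 22 matrix metalloproteinases, 4 Timp inhibitors, 18 Adamts proteases and 3 further matrix proteins. The rule uses symbols only, but it was set with earlier results of these data known. Where several probe sets named the same gene, as for 5 of the 91, the one with the highest mean intensity stood for it.

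Each sample was liver RNA from male C57Bl/6 mice aged 10 to 12 weeks, hybridised to 1 Affymetrix array. NS-DADm mice carry mutations of the deacetylase-activating domain (DAD) in both nuclear receptor corepressors, NCOR and SMRT, and WT mice are the normal controls. The DAD is the stretch through which these proteins bind and activate the histone deacetylase HDAC3. Both groups ate normal chow under cycles of 12 h light and 12 h dark, and the labels give a sampling time of ZT10, which is 10 h after lights on. Nothing in the labels ties each array to an animal of its own, so the p-values describe the spread between these samples and that spread may be technical. Values are log2 intensities as deposited. An intensity depends on the probes as well as on the transcript, so no gene is called more highly expressed than another. The median level of all genes is used only to mark dim probe sets.

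Collagens are triple-helical proteins built of 3 chains each. In liver the fibrillar types I, III and V form the scaffold around portal tracts and vessels, type IV lies along the sinusoids, and the stellate cell of the sinusoid wall is a main source of both. Matrix metalloproteinases (Mmp) are zinc enzymes that cut collagens and other matrix proteins, Timps are their tissue inhibitors, and Adamts enzymes are related secreted proteases that process proteoglycans, procollagens and von Willebrand factor. Lumican (Lum) and decorin (Dcn) are small leucine-rich proteoglycans that bind collagen fibrils, and Ecm1 is a secreted glycoprotein of the matrix.

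A single matrix gene passed the test. Mmp9 was higher in NS-DADm livers, and the other 90 genes did not pass an adjusted p of 0.05 in limma. With Mmp9 included, 8 of the 91 had an unadjusted p under 0.05. Over all 19935 genes 0.271% passed, 54 in number, against 1 of the 91 here, or 1.10%. An unadjusted p under 0.05 was found for 9.33% of all genes and for 8.79% of the matrix genes. Of those 8, 3 were higher in NS-DADm livers, as were 3.72% of all genes, and 5 were lower, as were 5.6% of all genes. The matrix genes had a median log2 fold change of 0.0084, against -0.011 over all genes, and 87 of the 91 lay within 0.25 of 0. The count of 1 was 0 without WT replicate 2 or WT replicate 3 and 2 without NS-DADm replicate 4, and it was 0 when only the brighter genes, with a mean not under the median of all genes, were tested, because that filter removes Mmp9. For these genes the standard error (SE) had a median of 0.076 on the log2 scale.

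**Figure D1:**
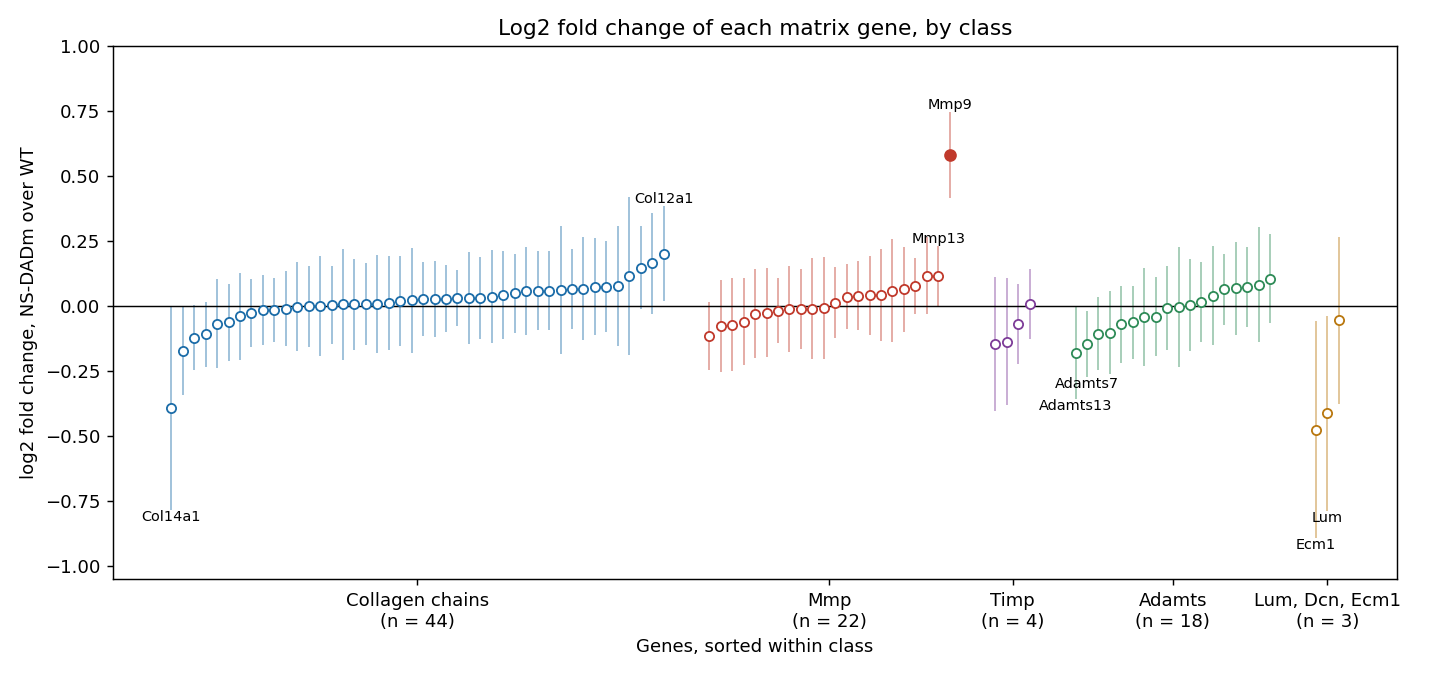
Log2 fold change of NS-DADm over WT livers (y axis) for each of the 91 matrix genes, sorted within 5 classes (x axis); lines are 95% confidence intervals from limma, filled points passed the adjusted threshold and named genes had an unadjusted p under 0.05. Mmp9, at 0.58, is the filled point, while most other genes sit close to 0 and Ecm1, Lum and Col14a1 lie lowest with wide intervals.

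Among the proteases, Mmp9 (Entrez Gene 17395, chromosome 2) encodes gelatinase B, which digests denatured collagen and type IV collagen and is made by neutrophils and macrophages. Its log2 intensity was 7.82, 7.71, 7.81 and 7.53 in the 4 NS-DADm livers, against 7.22, 7.16, 7.14 and 7.02 in the 4 WT livers. Every NS-DADm value lay above every WT value, a separation found for 1.8% of all genes in this direction. The means were 7.72 ± 0.14 in NS-DADm and 7.14 ± 0.083 in WT livers (SD, n = 4 each), a 1.496-fold difference (log2 fold change 0.58, SE 0.075, 95% confidence interval 0.41 to 0.75, limma adjusted p = 0.0119). The log2 fold change ran from 0.54 to 0.64 when single arrays were left out, and the adjusted p was 0.0696 without WT replicate 2 and 0.0501 without WT replicate 3. The mean of this probe set over the 8 arrays, 7.43, lay below the median level of all genes, 7.59. Its NS-DADm mean lay above that level and its WT mean below.

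Markers of leukocytes moved in the same samples as follows. All 9 neutrophil markers measured lay above 0 on the log2 fold change scale (median 0.084), against 44.3% of all genes. Of the 9, 0 passed the test in limma and 2, or 22.2%, had an unadjusted p under 0.05, against 9.33% of all genes. The probe sets of all 9 lay below the median level of all genes, where differences are the least certain. Their mean log2 intensity ran from 6.26 to 6.43 in NS-DADm livers, against 6.16 to 6.30 in WT livers. It was lowest in WT replicates 2 and 4, at 6.16 in each. The largest differences were S100a9, a calcium-binding protein of neutrophil granulocytes, at 0.22 (adjusted p = 0.345), and Ly6g at 0.19. Mmp8, the neutrophil collagenase, had a log2 fold change of -0.010. The mean of 8 Kupffer cell and macrophage markers ranged from 8.47 to 9.56 in NS-DADm livers, against 8.60 to 9.20 in WT livers, and was lowest of all arrays in NS-DADm replicate 1 and highest in NS-DADm replicate 4. In NS-DADm replicates 1 to 4 that mean was 8.47, 8.78, 9.15 and 9.56, and Mmp9 read 7.82, 7.71, 7.81 and 7.53. Of the 8 macrophage markers 7 lay above 0 on the log2 fold change scale (median 0.067), and 0 passed the test in limma. The part of either cell type in the Mmp9 result was not tested. In bulk tissue, more cells of a type and more RNA per cell cannot be told apart.

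The other 21 metalloproteinases did not pass the test. Of all 22, 11 were above 0 and 11 below, and the median log2 fold change was 0.0023; 14 were above 0 after quantile normalization. Mmp13, a collagenase, read 6.64, 6.69, 6.68 and 6.58 in NS-DADm livers, against 6.57, 6.47, 6.56 and 6.52 in WT livers. These groups did not overlap, but the difference was small, with a log2 fold change of 0.12 (SE 0.052, limma adjusted p = 0.528). Mmp19, a widely expressed metalloproteinase, read 10.20, 10.22, 10.24 and 10.22 in NS-DADm livers, against 10.17, 10.14, 10.08 and 10.18 in WT livers. Here too the groups did not overlap, at a log2 fold change of 0.077 (limma adjusted p = 0.721). Separation of the groups in either direction was found for 3 of the 91 matrix genes, Mmp9, Mmp13 and Mmp19, or 3.30%, against 5.63% of all genes. All 3 were higher in NS-DADm livers, and 0 matrix genes separated in the other direction, against 3.83% of all genes.

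Mmp14, the membrane-anchored enzyme that activates pro-Mmp2, and Mmp2 itself, gelatinase A of stromal cells, had log2 fold changes of 0.041 and -0.026. Mmp12, the macrophage elastase, had one of 0.12 (adjusted p = 0.664; 0.072 without WT replicate 4), Mmp3, or stromelysin 1, one of 0.042, and Mmp7, or matrilysin, one of -0.0082. In the RefSeq gene table for GRCm38.p6, 10 metalloproteinase genes follow one another on chromosome 9 with no other protein-coding gene between them, from Mmp13 through Mmp12, Mmp1b, Mmp3, Mmp1a, Mmp10, Mmp8, Mmp27 and Mmp20 to Mmp7. In this cluster 0 of 10 passed the test in limma, with 1, Mmp13, at an unadjusted p under 0.05, and the log2 fold changes ran from -0.077 to 0.12, that of Mmp13. All 10 probe sets lay below the median level of all genes.

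The bases before the transcription start are shown for the metalloproteinase at the end of that cluster and for 2 genes described below, because their values varied between arrays or groups. The sequences are RefSeq's for GRCm38.p6, 250 bases that end just before the annotated start, read 5′ to 3′ on the gene's strand. They lie at chr9:7272264-7272513 on the plus strand for Mmp13, chr3:95739570-95739819 on the minus strand for Ecm1 and chr10:86300162-86300411 on the plus strand for Timp3. Capitals mark matches, on either strand, to TGANTCA (the AP-1 motif), GGGCGG (the GC box), TATAAA (the TATA box), CCAAT (the CCAAT box) or the NF-kappaB motif.
Mmp13: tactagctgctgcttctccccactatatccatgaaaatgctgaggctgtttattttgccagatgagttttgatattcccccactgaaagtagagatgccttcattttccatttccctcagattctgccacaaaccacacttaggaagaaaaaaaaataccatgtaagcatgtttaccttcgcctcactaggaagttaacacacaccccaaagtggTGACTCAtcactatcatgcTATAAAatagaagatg
Ecm1: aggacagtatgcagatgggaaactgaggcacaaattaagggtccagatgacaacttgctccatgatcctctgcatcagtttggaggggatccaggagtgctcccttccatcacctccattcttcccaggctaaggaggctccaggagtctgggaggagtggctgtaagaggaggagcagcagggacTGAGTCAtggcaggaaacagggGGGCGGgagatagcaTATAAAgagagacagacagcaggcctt
Timp3: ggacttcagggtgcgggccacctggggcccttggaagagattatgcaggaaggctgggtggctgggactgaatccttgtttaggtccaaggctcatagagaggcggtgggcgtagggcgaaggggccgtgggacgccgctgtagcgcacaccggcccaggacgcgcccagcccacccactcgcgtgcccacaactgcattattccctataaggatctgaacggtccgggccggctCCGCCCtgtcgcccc
The Mmp13 sequence holds an AP-1 match at 35 to 29 and a TATA box match at 16 to 11 bases before the start. In Ecm1 an AP-1 match lies at 64 to 58, a GC box match at 42 to 37 and a TATA box match at 27 to 22 bases before the start. Timp3 has a GC box match on the opposite strand, at 15 to 10 bases before the start. No capitals overlap in these sequences. The table holds sequence for 66 of the 91 genes, Mmp9, Col14a1, Lum and Dcn not among them.

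Over those 66 genes, 10 had an AP-1 match, 36 a GC box match, 15 a TATA box match, 20 a CCAAT box match and 10 an NF-kappaB match in this window. Counted by window, 13.9% of the 72 windows of matrix genes held the AP-1 motif, against 6.75% of all 32851 windows. The GC box was in 51.4% of the matrix windows and 32.7% of all windows, the TATA box in 20.8% and 12.4%, the CCAAT box in 29.2% and 33.8%, and the NF-kappaB motif in 13.9% and 7.25%. A match describes the letters only.

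The inhibitors did not pass the test, with 0 of 4 called in limma and 0 at an unadjusted p under 0.05. Timp3, which is held in the matrix and inhibits metalloproteinases and several Adam and Adamts enzymes, read 9.05, 9.24, 8.97 and 9.57 in NS-DADm livers, against 9.21, 9.44, 9.35 and 9.41 in WT livers. Its lowest NS-DADm values lay below all WT values and its highest above them, and the log2 fold change was -0.15 (SE 0.117, limma adjusted p = 0.815). Timp2, which also takes part in the activation of pro-Mmp2 by Mmp14, read 8.05, 8.32, 8.38 and 8.52 in NS-DADm livers, against 8.31, 8.46, 8.34 and 8.71 in WT livers, a log2 fold change of -0.14 (adjusted p = 0.819). Leaving out single arrays gave -0.27 to -0.067 for Timp3, the extremes without NS-DADm replicates 4 and 3, and -0.20 to -0.047 for Timp2, without NS-DADm replicates 4 and 1; without WT replicate 4 Timp2 was at -0.053. Timp1, the inhibitor that is induced in injured and fibrotic liver, ranged from 6.05 to 6.21 in NS-DADm livers and from 6.00 to 6.16 in WT livers. It had a log2 fold change of 0.0084, with a 95% confidence interval of -0.12 to 0.14, on a probe set well below the median level of all genes. Timp4 had a log2 fold change of -0.070 (adjusted p = 0.881).

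Of the 18 Adamts genes 0 passed the test in limma and 2 had an unadjusted p under 0.05. Their log2 fold changes ran from -0.18 to 0.11, with 8 above 0, 10 below and a median of -0.0062, and 10 were above 0 once array medians were subtracted. The lowest was that of Adamts13, the protease that cleaves von Willebrand factor and is made by stellate cells. It read 7.45, 7.67, 7.77 and 7.78 in NS-DADm livers, against 7.89, 7.95, 7.82 and 7.75 in WT livers (log2 fold change -0.18, adjusted p = 0.517, and -0.11 without NS-DADm replicate 1). The groups overlapped, with 1 WT array inside the NS-DADm range. Adamts7, which cleaves cartilage oligomeric matrix protein, averaged 8.09 ± 0.056 in NS-DADm and 8.23 ± 0.072 in WT livers (SD, n = 4 each), which differed by -0.15 on the log2 scale (adjusted p = 0.443). Adamts1, Adamts4 and Adamts5, which cut the proteoglycans versican and aggrecan, had log2 fold changes of 0.068, 0.11 and -0.0048, and that of Adamts4 was 0.033 without WT replicate 4.

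No collagen chain passed the test in limma, and 2 of the 44 had an unadjusted p under 0.05. One of them was Col14a1, a fibril-associated collagen, at -0.39 and the other Col12a1, of the same subfamily, at 0.20. The 44 log2 fold changes ran from -0.39 to 0.20 with a median of 0.024, against -0.011 over all genes, and 43 lay within 0.25 of 0. Of the 44 chains 31 were above 0 and 13 below, but 9 were above 0 without WT replicate 4, when their median was -0.033 and that of all genes -0.024. That array gave the lowest of the 8 values for 33 of the 44 chains, or 75%, against 21.9% of all genes and 33.1% of the genes below the median level. WT replicate 1 gave the highest value for 21 chains, or 47.7%, against 22.2% of all genes and 30.6% of the genes below the median level. Among the 17 collagens below the median level, WT replicate 4 was lowest for 13. Col8a1, a short-chain collagen of vessel walls, is an example, at 7.45, 7.53, 7.22 and 7.03 in NS-DADm livers, against 7.46, 7.17, 7.29 and 6.84 in WT livers. It was named after its values were seen. The median of that WT array over all probe sets, 7.39, was also the lowest of the 8. Once array medians were subtracted 33 of the 44 chains were above 0, and after quantile normalization 32 were. With array weights 22 of the 44 were above 0. The cause of the low values in that array was not tested.

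The fibrillar chains of types I, III and V lay close together in the groups. Col1a1 and Col1a2 encode the chains of type I collagen, the collagen that accumulates in fibrosis. Col1a1 read 8.69, 8.65, 8.59 and 8.71 in NS-DADm livers, against 8.68, 8.58, 8.72 and 8.54 in WT livers. The groups overlapped almost fully, and the log2 fold change was 0.028. Its 95% confidence interval in limma was -0.10 to 0.16, with the upper end at a fold change of 1.12 for these arrays. Col1a2 read 8.47, 8.56, 8.57 and 8.78 in NS-DADm livers, against 8.77, 8.61, 8.72 and 8.55 in WT livers, a log2 fold change of -0.068 (95% confidence interval -0.24 to 0.10). Col3a1, the single chain of type III collagen, read 8.30, 8.31, 8.33 and 8.58 in NS-DADm livers, against 8.37, 8.39, 8.43 and 8.29 in WT livers. Its value in NS-DADm replicate 4 stood above the rest of that group, and the log2 fold change was 0.0088, or -0.057 without that array. Col5a1, Col5a2 and Col5a3, the chains of type V collagen, were at -0.039, -0.016 and 0.049.

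Type IV collagen of the sinusoid wall is encoded mainly by Col4a1 and Col4a2, which are neighbours on chromosome 8 and are transcribed away from each other. RefSeq's starts for the pair on GRCm38.p6 overlap by 22 bases, at chr8:11312805-11312826, where the plus strand, shown because both transcripts begin in it, reads as follows.
Col4a1 and Col4a2 shared start: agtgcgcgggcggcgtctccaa
Col4a1 read 8.41, 8.30, 8.27 and 8.50 in NS-DADm livers, against 8.37, 8.24, 8.39 and 8.21 in WT livers, a log2 fold change of 0.065 (SE 0.069, limma adjusted p = 0.894). Col4a2 read 7.97, 8.06, 8.01 and 7.997 in NS-DADm livers, against 8.20, 8.09, 8.16 and 8.01 in WT livers, with a log2 fold change of -0.11 (SE 0.057 and adjusted p = 0.611). The values of the pair thus had opposite signs with neither past the test, and whether the fold changes of the 2 genes differ from each other was not tested. The other 4 type IV chains, found mainly in kidney and other basement membranes, ran from -0.016 to 0.075.

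Type VI collagen forms beaded filaments around cells, and its main chains Col6a1, Col6a2 and Col6a3 had log2 fold changes of 0.043, 0.058 and 0.030. Col18a1, the basement-membrane collagen that hepatocytes make and that gives rise to endostatin, read 10.29, 10.31, 10.27 and 10.27 in NS-DADm livers, against 10.51, 10.39, 10.43 and 10.30 in WT livers. The lowest WT array lay inside the NS-DADm range, and the log2 fold change was -0.12 (95% confidence interval -0.25 to 0.0030, adjusted p = 0.548). Col15a1, its relative, averaged 8.26 ± 0.18 in NS-DADm and 8.09 ± 0.096 in WT livers (SD, n = 4 each), which differed by 0.16 on the log2 scale (adjusted p = 0.629), or 0.10 without NS-DADm replicate 2. Col27a1, a fibrillar collagen of cartilage, had one of -0.17 (adjusted p = 0.541). Col12a1 averaged 7.07 ± 0.092 in NS-DADm and 6.87 ± 0.16 in WT livers (SD, n = 4 each; adjusted p = 0.474).

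**Figure D2:**
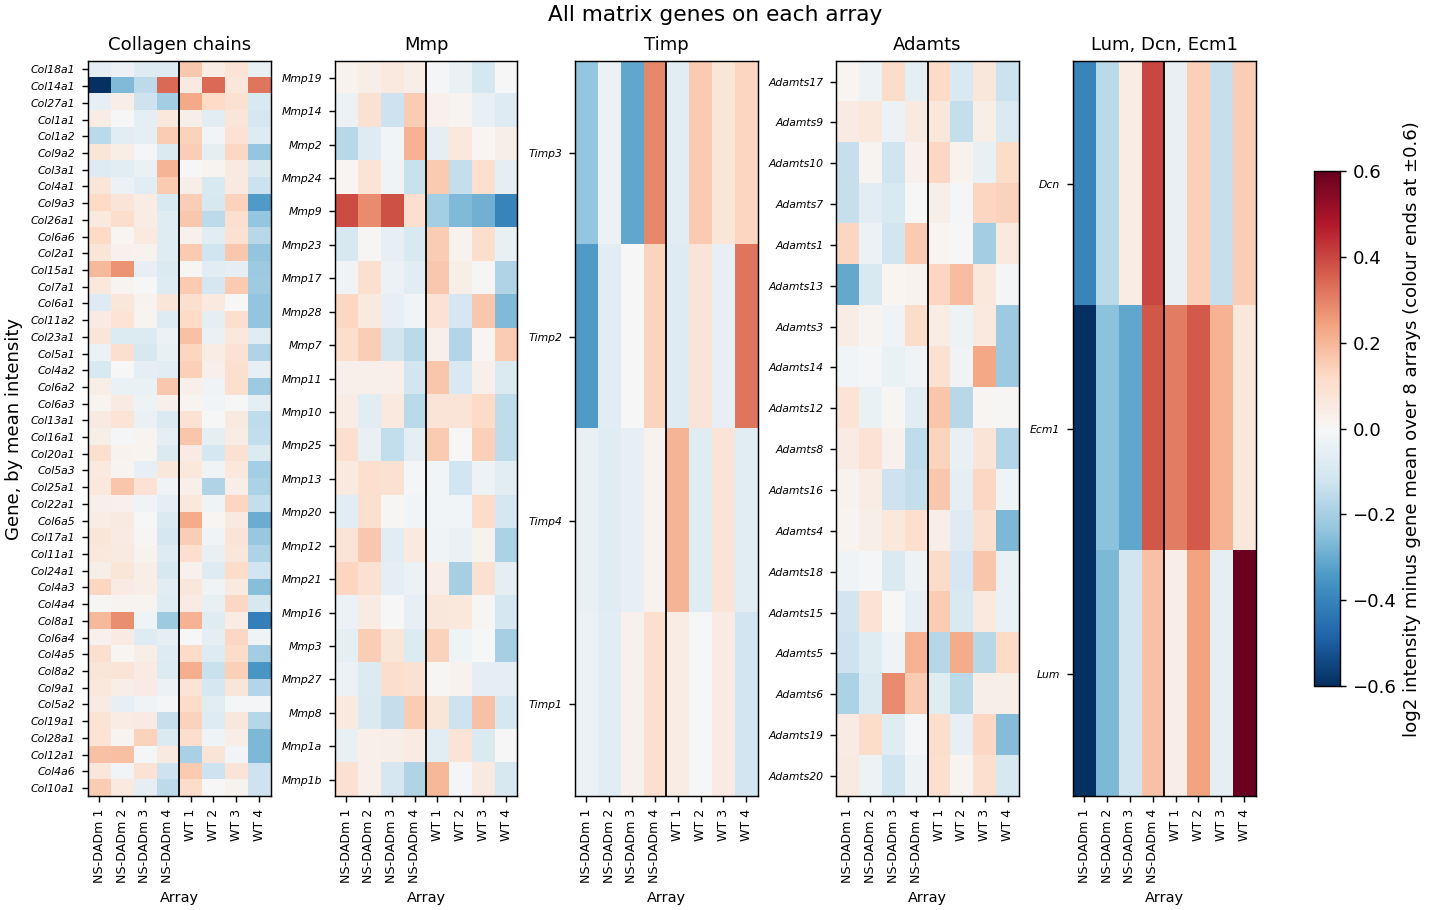
Log2 intensity of each of the 91 matrix genes (rows, by mean intensity within class) on each array (columns, NS-DADm left of the line and WT right), minus the gene's mean over the 8 arrays. Mmp9 is high in all 4 NS-DADm arrays, many collagens are lowest in WT replicate 4, and Col14a1, Ecm1, Lum and Dcn are lowest in NS-DADm replicate 1.

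The widest variation between arrays was found in genes of the stromal matrix, within the NS-DADm group. Ecm1, which in mouse liver is known to hold latent TGF-beta in check, read 10.14, 10.66, 10.60 and 11.29 in NS-DADm livers, against 11.22, 11.28, 11.12 and 10.98 in WT livers. Of the NS-DADm arrays 3 lay below all WT arrays and replicate 4 lay above them all. The means were 10.67 ± 0.47 in NS-DADm and 11.15 ± 0.13 in WT livers (SD, n = 4 each), a difference of -0.48 on the log2 scale (SE 0.189, 95% confidence interval -0.89 to -0.059, limma adjusted p = 0.452). Without NS-DADm replicate 4 it was -0.68 (adjusted p = 0.046), and without NS-DADm replicate 1 it was -0.30. Over all genes, 126 passed without NS-DADm replicate 4, against 54 with every array. Whether Ecm1 counts as changed therefore depended on a single array.

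Col14a1, made by stellate cells and fibroblasts, read 9.08, 9.52, 9.62 and 10.12 in NS-DADm livers, against 9.84, 10.12, 9.85 and 10.10 in WT livers. Again 3 NS-DADm arrays lay below the WT range while replicate 4 lay within it, at a log2 fold change of -0.39 (SE 0.177, limma adjusted p = 0.531), or -0.57 without NS-DADm replicate 4 (adjusted p = 0.0962). Leaving out NS-DADm replicate 1 instead gave -0.22 (adjusted p = 0.893). Lum read 6.86, 7.20, 7.35 and 7.65 in NS-DADm livers, against 7.51, 7.71, 7.42 and 8.06 in WT livers, a log2 fold change of -0.41 (adjusted p = 0.474). Dcn, the next protein-coding gene beside Lum on chromosome 10, read 11.52, 11.75, 11.96 and 12.31 in NS-DADm livers. In WT livers Dcn lay between 11.77 and 12.06, and its log2 fold change was -0.055 (SE 0.145, adjusted p = 0.976). Within the NS-DADm group, all 4 of these genes were lowest in replicate 1 and highest in replicate 4, with ranges of 1.14 for Ecm1, 1.04 for Col14a1, 0.80 for Dcn and 0.79 for Lum, against 0.30, 0.28, 0.29 and 0.65 among WT arrays. That order together with a range over 0.5 was found for 4 of the 91 matrix genes, or 4.40%, and for 2.53% of all genes. By contrast Col1a1 had an NS-DADm range from 8.59 to 8.71.

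**Figure D3:**
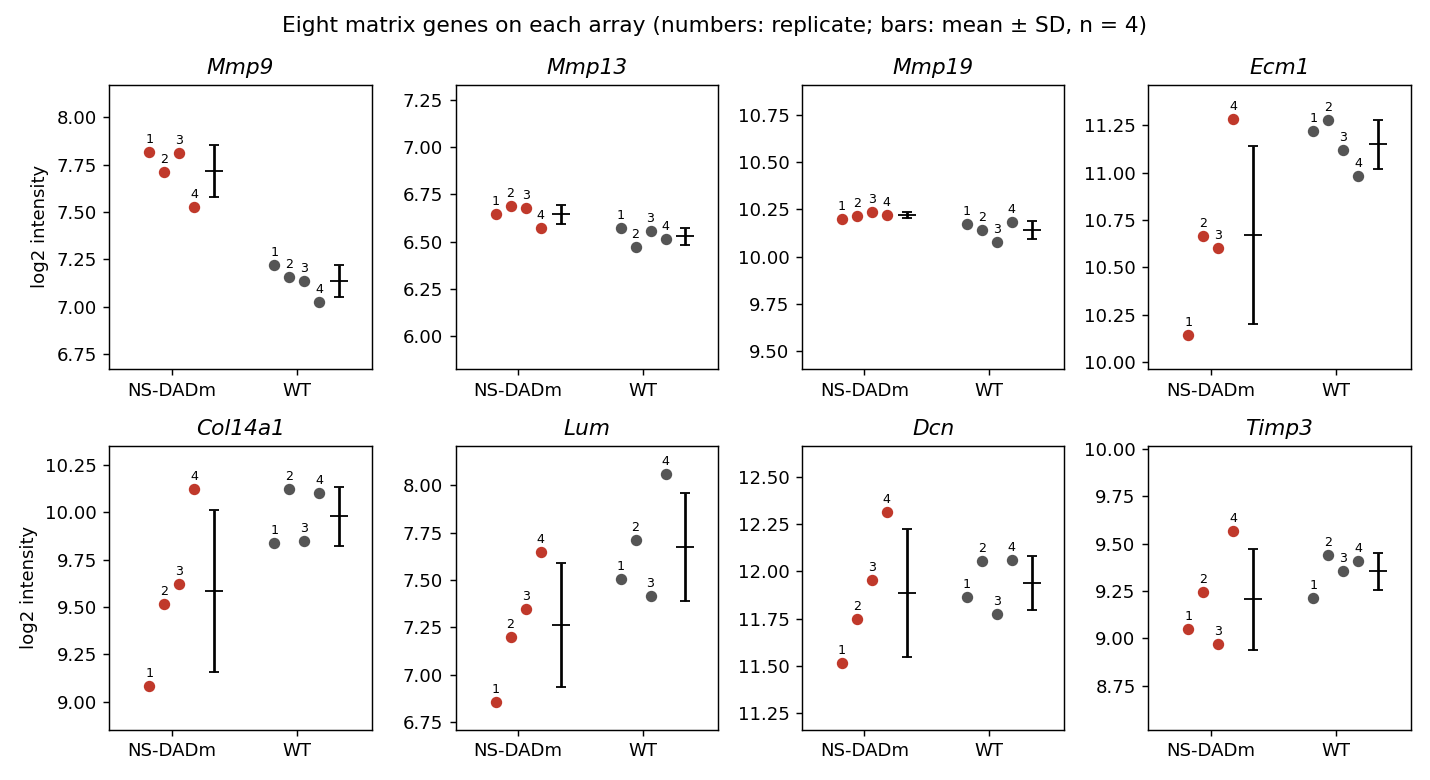
Log2 intensity (y axis, spanning 1.5 log2 units in each panel) of 8 matrix genes in NS-DADm and WT livers; each point is an array with its replicate number, and bars are mean ± SD (n = 4). Mmp9 separates the groups at 7.53 and above in NS-DADm and 7.22 and below in WT, whereas Ecm1, Col14a1, Lum and Dcn range widely among NS-DADm arrays from replicate 1 (lowest) to replicate 4 (highest).

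The mean levels of marker lists for cells that line the sinusoid were also lowest in NS-DADm replicate 1, though not each stellate marker was. This was not particular to those cells. The hepatocyte list (13.71) and the lists of collagen assembly (8.14), other matrix proteins (8.16) and matrix receptors (7.77) were lowest in that array too. The myofibroblast, portal fibroblast, neutrophil, cholangiocyte, plasminogen and TGF-beta lists were not. The mean log2 intensity of 9 stellate cell markers was 8.08 in NS-DADm replicate 1, 8.22 and 8.25 in replicates 2 and 3 and 8.53 in replicate 4, against 8.33 to 8.45 in WT livers. Of the 9 markers 0 passed the test in limma and 2, or 22.2%, had an unadjusted p under 0.05, against 9.33% of all genes. On the log2 fold change scale 3 lay above 0 and 6 below (median -0.049). Lowest were Reln, a glycoprotein secreted by stellate cells, at -0.35 (adjusted p = 0.454) and Lrat, which esterifies retinol for storage in these cells, at -0.25 (adjusted p = 0.866), while Cygb, a globin of these cells, was highest at 0.046. The 10 sinusoidal endothelial markers all had log2 fold changes below 0, with a mean level of 9.004, 9.27, 9.28 and 9.60 in the 4 NS-DADm arrays, against 9.47 to 9.70 in WT livers. Of all genes, 44.3% lay above 0. Of the 10 endothelial markers 0 passed the test in limma. An unadjusted p under 0.05 was found for 8 of them, or 80%, all below 0, against 5.6% of all genes in that direction. The mean of 6 myofibroblast and smooth muscle markers lay between 7.43 and 7.58 in NS-DADm livers, against 7.42 and 7.54 in WT livers. Of these 6, 4 lay above 0 on the log2 fold change scale and 2 below (median 0.058), and 0 passed the test in limma. The largest difference was that of Myl9, at -0.21 (adjusted p = 0.629), while Acta2, the actin of activated stellate cells, was at 0.17 (adjusted p = 0.608). The 5 hepatocyte markers measured averaged 13.71 to 13.79 in NS-DADm and 13.78 to 13.79 in WT livers, and 0 passed the test in limma. Tat, tyrosine aminotransferase, was at -0.20 (unadjusted p = 0.0235, adjusted p = 0.427), the groups did not overlap, and its lowest value was 13.39 in NS-DADm replicate 1. The other 4, albumin among them, were all above 0, at 0.048 or less. The part of these cell types in the values of Ecm1, Col14a1, Lum and Dcn was not tested.

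**Figure D4:**
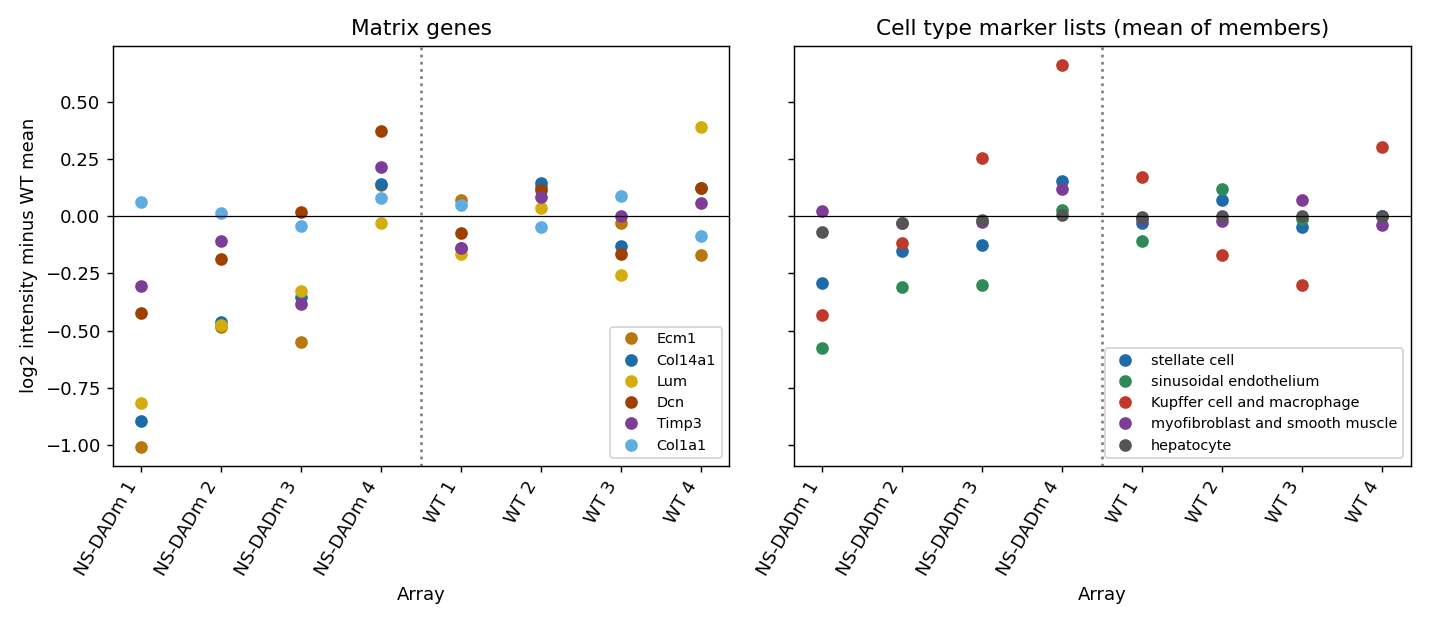
Log2 intensity minus the WT mean (y axis) on each array (x axis), for 6 matrix genes (left) and for the mean of 5 lists of cell type markers (right). Ecm1, Col14a1, Lum and Dcn and the stellate, sinusoidal endothelial and Kupffer cell lists are lowest in NS-DADm replicate 1. The hepatocyte list is lowest there too, by a small margin, while Col1a1 and the myofibroblast list vary little.

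Genes that assemble, bind or regulate the matrix did not pass the test in either direction. Of 24 genes of collagen assembly measured, 0 passed in limma and 2 had an unadjusted p under 0.05, with 17 log2 fold changes below 0 and a median of -0.066. P4ha1 and P4ha2, the catalytic subunits of the prolyl hydroxylase that stabilises the collagen helix, were at -0.21 (adjusted p = 0.758) and -0.32 (adjusted p = 0.164). Of 25 other matrix proteins, 0 passed, 3 had an unadjusted p under 0.05 and 23 lay below 0, with a median of -0.13. Above 0 were 29.2% of the assembly genes and 8% of these matrix proteins, against 44.3% of all genes, whose median was -0.011. An unadjusted p under 0.05 was found for 8.33% and 12% of the 2 lists, against 9.33% of all genes. The largest were Prelp, a leucine-rich protein that anchors basement membranes, at -0.43 (adjusted p = 0.289), and Fbln5, a protein of elastic fibres, at -0.34 (adjusted p = 0.197). Prelp too was lowest in NS-DADm replicate 1, at 9.07, and highest of that group in replicate 4, at 9.81, against 9.85 to 10.00 in WT livers.

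Among 11 receptors for collagen and matrix, 0 passed and 1 had an unadjusted p under 0.05, the inhibitory collagen receptor of leukocytes Lair1, at 0.28 (adjusted p = 0.499). Cd44, the hyaluronan receptor, was at 0.23 (adjusted p = 0.801). Of 10 genes of the plasminogen system, of furin and of other protease regulators, 0 passed and 1 had an unadjusted p under 0.05, Furin, which activates several proproteins, at -0.15 (adjusted p = 0.371). Reck, a membrane-anchored inhibitor of Mmp9 and other metalloproteinases, was at -0.24 (adjusted p = 0.630), the largest difference in that list. It read 8.36 in WT replicate 4 and 7.67 to 7.91 in the other WT livers, against 7.56 to 7.79 in NS-DADm livers. Of 17 genes of TGF-beta and fibrogenic signalling, 0 passed and 4, or 23.5%, had an unadjusted p under 0.05, all below 0. In that direction the share of all genes was 5.6%. Tgfbr2, the type II receptor, was at 0.33 (adjusted p = 0.631), with 10.19 in NS-DADm replicate 1 and 9.18 to 9.52 in the other NS-DADm livers, against 9.12 to 9.35 in WT livers. Ltbp4, which binds latent TGF-beta, was at -0.31 (adjusted p = 0.429). The ligand gene Tgfb1 was at -0.021.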

How the data were processed

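Liver RNA of 4 NS-DADm and 4 WT samples was read on Affymetrix arrays, 1 array a sample. The authors deposited 1 table of 28270 probe sets, taken as log2 intensities because its values run from 3.43 to 14.37. RMA and Partek are named per the submitters' processing notes, and how they were run is not stated there. RMA compresses small differences at low intensity. Array medians ran from 7.39 to 7.50. No detection call or batch was given, so no value can be set against background.

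Of the probe sets 21780 named 1 gene in the platform annotation, 1617 several and 4873 none. The highest-mean single-gene probe set stood for each of 19935 genes, of which 19852 matched RefSeq's GRCm38.p6 gene table by Entrez identifier, all 91 matrix genes included. No filter or pseudocount was used. Groups were compared over all genes with limma 3.58.1 (lmFit, eBayes, two-sided, Benjamini-Hochberg, threshold 0.05) in R 4.3.3, a fit that was also tested on simulated data. SDs are over 4 arrays and the number of arrays limits the precision. Figures used Python 3.11.15 and matplotlib 3.10.9.

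The members, gene lists and marker lists were chosen with earlier results of these data known. Genes named are those with an unadjusted p under 0.05, all Timps, Lum, Dcn and Ecm1, a list of liver collagens and proteases (of which Adamts2 and Mmp15 were not analysed here), the 3 largest differences of each class and the 2 largest of each pathway list. Marker genes, Furin, Tgfb1, Col5a3 and Col8a1 were named after their values were seen. Alternatives were other probe set rules, 2 filters, quantile normalization, median subtraction, array weights, trended and robust variances, blocking on replicate number, a threshold of 0.1 and each array left out.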

Additional observations from a re-analysis of the deposited data

Results flagged for a closer look

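Of 182 groups of 4 arrays (91 genes in 2 genotypes), 7, or 3.85%, held a sample whose gap to its nearest neighbour took up more of the group's range than Dixon's 95% critical value for 4 samples, a limit that chance passes in about 1 of 20 groups. Among the 36 genes named by rule this was so for 1, Col3a1, in NS-DADm replicate 4, at 8.58 against 8.30 to 8.33 in the other NS-DADm livers. Of the other genes it was so for Adamts9, Col19a1, Col4a4, Col8a2 and Mmp11 among NS-DADm arrays and for Mmp10 in WT replicate 4, at 6.61. In NS-DADm replicate 4, the array flagged for Col3a1, Dcn (12.31), Timp3 (9.57) and Mmp2 (8.36) were also the highest of all 8 values.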

How the results depend on the processing

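Of 36 named matrix genes, 23 kept the direction of their log2 fold change under every one of the 17 alternatives that tested the gene, Mmp9, Ecm1, Col14a1 and Lum among them. The number of all genes past the threshold, 54, was 109 with array weights, 105 with the replicate number as a block and 109 at an adjusted p of 0.1, and it ran from 13 to 126 as single arrays were left out. The number of matrix genes, 1, was 0 when genes under the median level were left out and ran from 0 to 2 as single arrays were left out, where Mmp9 stayed between 0.54 and 0.64. The replicate block kept Mmp9 alone (0.58, adjusted p = 0.00779). Same-numbered arrays had correlations of their deviations of 0.15, 0.05, -0.10 and 0.25, so the numbers were not taken as pairs. Small values changed sign. Array weights gave -0.0039 for Col1a1, -0.041 for Col3a1, -0.0063 for Col6a2, 0.042 for Mmp7 and -0.029 for Timp1. Quantile normalization gave 0.0017 for Adamts5, 0.00062 for Mmp7 and 0.0053 for Mmp8, and median subtraction 0.0041 for Adamts5 and 0.00067 for Mmp7. Leaving out single arrays gave -0.076 to 0.069 for Adamts5, -0.0013 to 0.058 for Col1a1, -0.057 to 0.036 for Col3a1, -0.039 to 0.019 for Col5a2, -0.029 to 0.082 for Col6a1, -0.0049 to 0.10 for Col6a2, -0.20 to 0.068 for Dcn, -0.0031 to 0.0897 for Mmp14, -0.099 to 0.026 for Mmp2, -0.017 to 0.096 for Mmp3, -0.068 to 0.044 for Mmp7, -0.063 to 0.047 for Mmp8 and -0.028 to 0.033 for Timp1. The causes of these sign changes were not tested. Without detection calls, differences in genes below the median level, 50 of the 91, are the least certain.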
